A study of Sus scrofa with 40 samples.

Results

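Aminoacyl-tRNA synthetases were followed in pig metaphase II oocytes that differed in their mitochondrial DNA (mtDNA) state. Members were the gene rows whose symbol is an amino acid letter followed by ARS, with or without a final 1 or 2, together with FARSA and FARSB. The rule found 30 of the 38794 named rows. Of these, 17 carry names without a 2 and encode the synthetases of the cytosol, and 13 end in 2 and encode those of mitochondria. The rule uses names and no measured value, though it was set with earlier results of these data known.

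Each synthetase joins 1 amino acid to the tRNAs that carry it, the step that supplies charged tRNA to the ribosome. Cytosolic and mitochondrial ribosomes mostly draw on separate enzymes, all encoded in the nucleus, and the mitochondrial set charges the tRNAs that mtDNA itself encodes. GARS and KARS serve both compartments from a single gene. A mature oocyte is largely silent in transcription, so its mRNA is a store built up during growth and used, or degraded, through maturation and early cleavage.

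Oocytes came from commercial hybrid pigs (Large White, Duroc and Berkshire) of an age the labels do not state. Pools of mtDNA-deficient oocytes gave 5 libraries (A1, A2, A3, B2 and B4) and pools of mtDNA-normal oocytes gave 6 (A2, A3, A4, B1, B2 and B4), where the series' text speaks of 5 a group. Pools were made with Ovation kits (SPIA in the titles), and single oocytes, 14 deficient and 15 normal, with the SoLo kit and pig InDA-C primers. The mtDNA state is the submitters' class. Titles carry neg or pos, with BCB for single oocytes, and the labels do not say how the state was set, how many oocytes a pool held or which animals they came from. For tests, counts of single oocytes of a state whose titles open with the same number were added up, which gave 4 deficient and 3 normal sums. What that number stands for is not stated. The deficient sums 1, 2, 3 and 4 held 2, 2, 3 and 7 oocytes and the normal sums 2, 3 and 4 held 4, 4 and 7. Each sum entered the tests as 1 sample. Levels are counts per 1000000 named counts (CPM), not divided by transcript length, so they are compared between libraries and not between genes.

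Pools held 14480546 to 29538982 counts and single oocytes 706929 to 3067523. In single oocytes 1 row, LOC102158401, took 58.5 ± 6.71% of the counts of deficient (SD, n = 14) and 64.2 ± 5.21% of normal libraries (SD, n = 15). In any pool it took at most 0.0275%. A larger share of this row lowers the CPM of every other gene. Oocyte markers were abundant in every group by their sum, at 7360 to 15900 CPM in pools and 1550 to 6030 CPM in single oocytes. None of the 12 was at 0 in any group, though DDX4 was counted in only 12 of the 29 oocytes. The 12 cumulus and granulosa markers summed to 61.2 to 192 CPM in deficient and 106 to 166 CPM in normal pools, most of it INHBA and VCAN, with AMH, FOXL2 and LHCGR at 0 in all pools. In single oocytes they summed to 18.8 to 54.3 CPM (deficient) and 6.19 to 42.5 CPM (normal), with AMH, NR5A2 and TNFAIP6 at 0. INHBA was counted in all 29 oocytes, VCAN in 26, STAR in 24 and CYP11A1 in 23, and each other marker in at most 6. The part of these cells in the results below was not tested.

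Transcripts of 22 to 28 of the 30 members were counted in a pool, and of 17 to 24 in a single oocyte. Most of the members' reads came from few of them. Family rows outside the rule, described further below, are not in these shares. By mean CPM over the 11 pools, LOC100524650 (RefSeq symbol FARSB, 773 CPM) and EPRS (251 CPM) stood above every member. In pools, TARS (threonine), KARS (lysine), LARS (leucine), NARS (asparagine) and DARS (aspartate) together held 82.8% of the members' summed CPM. TARS stood at 144 ± 26.6 CPM, KARS at 120.0 ± 36.7 CPM, LARS at 89.8 ± 27.9 CPM, NARS at 84.3 ± 22.8 CPM and DARS at 79.9 ± 18.3 CPM (each SD, n = 11 pools). These 5 were also the steadiest cytosolic members, with coefficients of variation over pools of 18.5% to 31.1%, where counting error alone would give 1.71% to 2.31%. At the other end, FARSA (the alpha subunit of the phenylalanine enzyme) varied by 95.3%, MARS (methionine) by 112% and CARS (cysteine) by 221%, where counting error would give 13.7%, 14.1% and 30.4%. The spread between pools was thus several times the counting error for these 8 members.

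**Figure D1:**
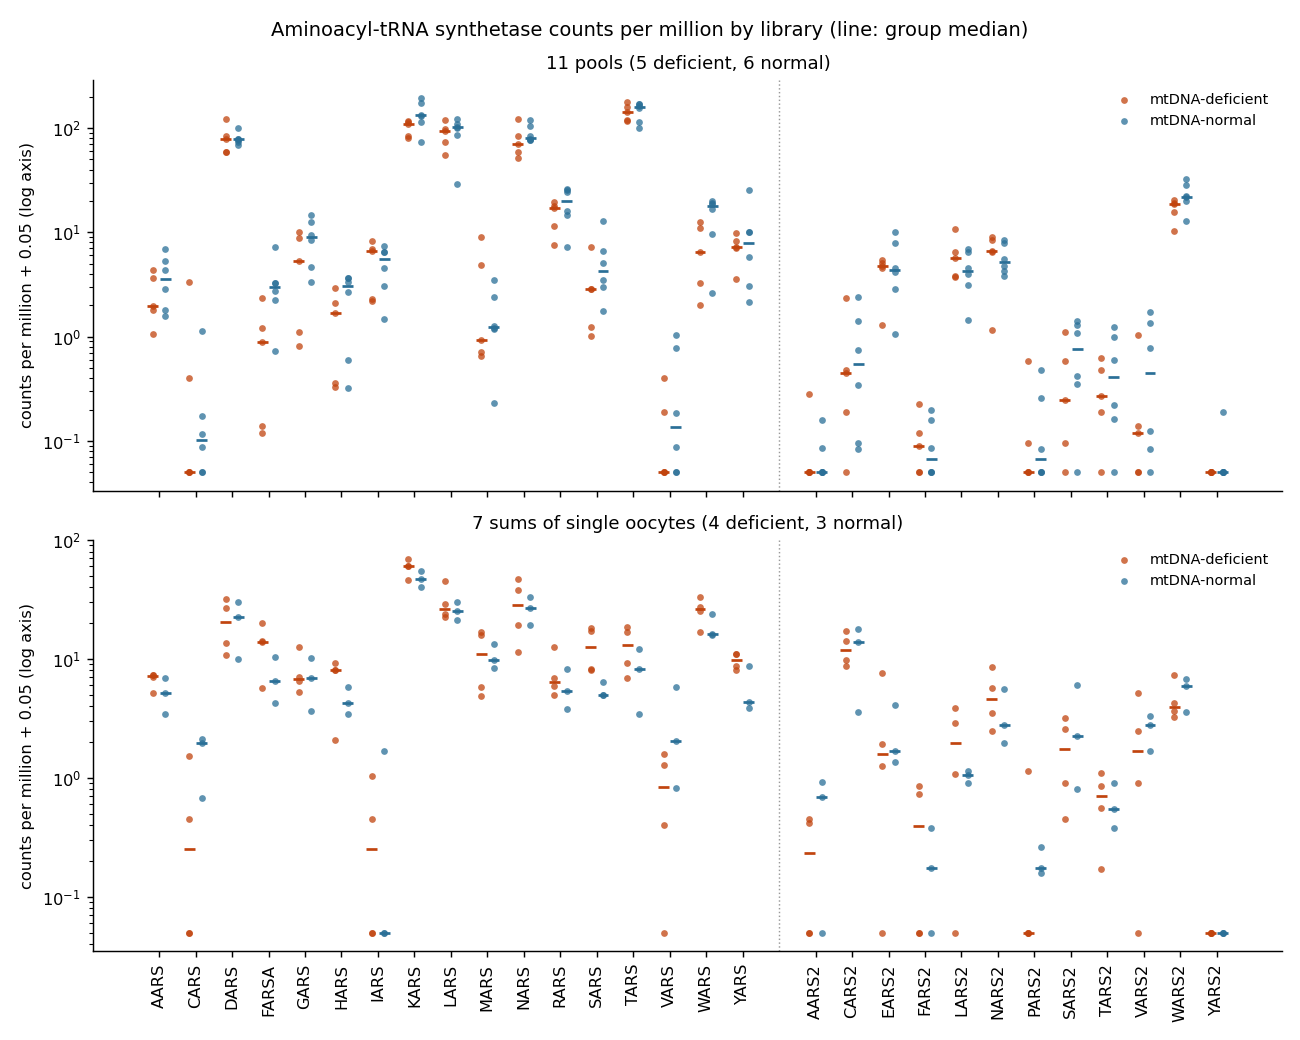
Level of 29 of the 30 members in each pool (upper panel, 5 deficient and 6 normal) and in each sum of single oocytes (lower panel, 4 deficient and 3 normal), in CPM with 0.05 added, on a log axis. Points are libraries and lines are group medians, the dotted line parts names without a 2 (left) from names ending in 2 (right), with deficient libraries in orange and normal in blue. TARS lies at 101 to 176 CPM in the upper and 3.38 to 18.6 CPM in the lower panel.

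Among rows whose name ends in 2, WARS2 (mitochondrial tryptophan) was the best covered in pools, at 20.1 ± 6.31 CPM (SD, n = 11). RARS2, whose row has a LOC name and lies outside the rule, stood higher, at 44.0 ± 7.97 CPM. NARS2, LARS2 and EARS2 were also counted in all 11 pools, at 5.98 ± 2.40, 5.12 ± 2.50 and 4.65 ± 2.59 CPM. AARS2, FARS2 and PARS2 reached only 10, 14 and 27 counts over the 11 pools, and 15, 10 and 12 counts over the 29 single oocytes. The row named YARS2 held 3 counts in 1 pool and none in the 29 oocytes, where 3 counts in the smallest library would be 4.24 CPM. A second row, LOC100624597, has the RefSeq symbol YARS2 and held 114 counts in 9 of 11 pools and 31 counts in 10 of 29 oocytes, so the YARS2 row does not stand for that gene.

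In pools, no synthetase passed the test between mtDNA states. edgeR's quasi-likelihood test passed 0 of 13540 genes at an adjusted p under 0.05 (0.0% of genes called), and 0 of the 21 members that met its expression filter. Without adjustment 726 genes had a p under 0.05, and 1 of them was a member. DESeq2 called 28 genes and limma-voom 0, none of them a member. Of the 15 cytosolic members tested, 5 had a higher and 10 a lower estimate in deficient pools, with a median log2 difference of -0.22, beside -0.0019 over all genes, of which 49.8% were higher. Of the 6 names ending in 2 tested, 3 were higher and 3 lower, with a median of 0.065. No member had CPM ranges that did not overlap between the states, beside 0.207% of genes that were apart with deficient pools higher and 0.391% with deficient pools lower.

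FARSA had the smallest p among the cytosolic members. Its level in the deficient pools A1, A2, A3, B2 and B4 was 0.838, 0.0691, 1.15, 2.27 and 0.088 CPM. In the normal pools A2, A3, A4, B1, B2 and B4 it was 3.22, 2.66, 2.21, 0.677, 7.23 and 3.18 CPM. Normal pool B1 lay below 3 of the 5 deficient pools, so the groups overlapped, and the lowest values rest on 1 and 2 counts. The log2 difference, deficient minus normal, was -1.74 (SE 0.81), with an unadjusted p of 0.0468 and an edgeR adjusted p of 0.921.

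WARS, the cytosolic tryptophan synthetase, read 6.38, 3.18, 1.94, 12.4 and 11 CPM in the deficient pools. The normal pools read 16.6, 2.57, 18.8, 9.55, 20 and 18.9 CPM. Of the 6 normal pools, 4 lay above every deficient pool, while A3 and B1 lay within the deficient range. The log2 difference was -0.90 (SE 0.47, edgeR adjusted p 0.921). With the number of genes detected in each pool as a covariate it was -0.30 (SE 0.45, edgeR adjusted p 0.935).

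MARS showed the opposite sign, with a size that rested on 1 pool. Deficient pools read 0.605, 8.91, 0.882, 4.77 and 0.660 CPM and normal pools 1.14, 0.183, 2.36, 1.22, 3.45 and 1.16 CPM. The log2 difference of 1.34 (SE 0.82, edgeR adjusted p 0.921) was 0.21 without deficient pool A2. KARS was far more even. Its deficient pools read 115, 80.8, 84.1, 108 and 117 CPM and its normal pools 134, 72.7, 114, 130, 192 and 172 CPM, and edgeR put the log2 difference at -0.26 (SE 0.18, edgeR adjusted p 0.921).

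For the other abundant cytosolic members the estimates were small and bounded by small errors. The log2 difference was 0.10 (SE 0.25) for TARS, 0.14 (SE 0.19) for DARS, 0.11 (SE 0.24) for LARS and -0.10 (SE 0.24) for NARS. By structural class, 3 of the 6 tested class I enzymes of the cytosol were higher and 3 lower in deficient pools, and 2 of 9 class II enzymes were higher and 7 lower. Of the 6 members that belong to the multi-synthetase complex, a cytosolic assembly of synthetases, IARS, LARS, MARS and DARS were higher and RARS and KARS lower, none past the threshold.

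Mitochondrial synthetases of small p in pools included LARS2, WARS2 and SARS2. LARS2, the leucine enzyme, read 5.59, 3.73, 10.8, 3.67 and 6.47 CPM in deficient pools and 6.48, 1.38, 3.94, 3.05, 6.80 and 4.47 CPM in normal pools. All but deficient pool A3 lay within 1.38 to 6.80 CPM, and the log2 difference was 0.70 (SE 0.43, edgeR adjusted p 0.921). WARS2 read 15.5, 10.3, 18.8, 18.9 and 20.2 CPM in deficient and 32.2, 12.7, 19.8, 28.4, 21.8 and 22.1 CPM in normal pools. Of the normal pools, 4 exceeded every deficient pool, and the log2 difference was -0.30 (SE 0.25, edgeR adjusted p 0.922). SARS2, at 42 counts over the deficient and 103 over the normal pools, differed by -0.72 (SE 1.09).

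Members tended to be low or high together in particular pools of both states. Normal pool A3 was the lowest normal pool for 15 of the 21 tested members, and deficient pool A2 the lowest deficient pool for 10. These pools also had the fewest genes detected in their groups, 15057 and 14207, beside medians of 18270 in normal and 16184 in deficient pools. Normal pool B2, with the most genes detected (19245), was the highest normal pool for 10 members. The matching shares over all genes were not counted, so whether these counts are particular to the members was not tested. With genes detected as a covariate, 10 of 17 tested cytosolic members were higher in deficient pools and 7 lower, with a median of 0.026, and 7 of 9 mitochondrial members were higher, with a median of 0.44. Over all genes of that fit the median was 0.0287 and 52.3% were higher. It tested more members than the fit without the covariate, the sign of the cytosolic median flipped, and no member passed the threshold.

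In single oocytes, too, no synthetase passed the test between states. The sums gave 0 calls among 11964 genes (0.0% called), 0 of them among 20 tested members. Without adjustment 231 genes had a p under 0.05, and 1 of them was a member. DESeq2 called 2 genes and limma-voom 0, none of them a member. The 14 cytosolic members tested had 9 higher and 5 lower estimates in deficient oocytes and a median log2 difference of 0.19. The 6 tested names ending in 2 had 1 higher and 5 lower and a median of -0.23, beside -0.0018 over all genes. The direction of the mitochondrial set did not hold across fits: with the title number as a block it was 4 higher and 3 lower (median 0.29), without normal sum 2 it was 5 and 2 (median 0.105), and with limma-voom 3 and 3 (median -0.073). Neither median has a test of its own.

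SARS, the cytosolic serine enzyme, was the only member whose sums did not overlap between states. It read 17.1, 8.06, 8.17 and 18.1 CPM in the deficient sums 1, 2, 3 and 4 and 4.88, 4.89 and 6.37 CPM in the normal sums 2, 3 and 4. Of all genes tested, 3.21% had all deficient sums above all normal sums, and 0.518% had all of them below, so a count of 1 among 20 members is near this background. Over single oocytes SARS ranged from 5.00 to 34.4 CPM (median 12.1) in the 14 deficient and from 0 to 15.6 CPM (median 5.19) in the 15 normal libraries, and these ranges overlapped. The log2 difference over sums was 1.01 (SE 0.40), with an unadjusted p of 0.0219 and an edgeR adjusted p of 1.

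Split by the dates carried by the column names, mean SARS CPM was the higher in deficient oocytes on each date. The split reuses the oocytes of the sums, so it is no separate support. On the later date alone SARS did not meet the expression filter. On 17 September the mean was 15.4 ± 9.54 CPM in deficient (SD, n = 8) and 4.58 ± 3.57 CPM in normal oocytes (SD, n = 9). On 22 September it was 13.9 ± 11.3 CPM in deficient (SD, n = 6) and 7.33 ± 5.19 CPM in normal oocytes (SD, n = 6). The share of LOC102158401 is lower in deficient oocytes, which raises the CPM of other genes there. How much of the gap in mean SARS CPM it makes was not tested. Over sums, the largest log2 difference of a cytosolic member was 1.009 in the main fit. With the 2 rows of most counts left out of the totals it was 1.011. For SARS, leaving out 1 sum at a time gave 0.87 to 1.15.

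FARSA, lower in deficient pools by estimate, was higher by estimate in deficient single oocytes. Its sums read 19.9, 5.64, 14.1 and 13.8 CPM (deficient) and 4.25, 6.52 and 10.3 CPM (normal), with deficient sum 2 within the normal range. Number by number the deficient sum was the higher for 2, 3 and 4, in FARSA as in YARS below. The same order held for other members, WARS, RARS and NARS2 among them, and not for KARS, HARS or TARS. No rate over all genes was taken, and the lower share of LOC102158401 in deficient oocytes enters these CPM values. For FARSA the log2 difference was 0.70 (SE 0.42, edgeR adjusted p 1). YARS, the tyrosine enzyme, read 8.01, 10.9, 8.68 and 10.9 CPM against 3.82, 4.26 and 8.68 CPM, a log2 difference of 0.63 (SE 0.43). TARS read 16.7, 6.85, 9.19 and 18.6 CPM against 12.1, 3.38 and 8.13 CPM, a log2 difference of 0.53 (SE 0.43). Both had an edgeR adjusted p of 1.

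**Figure D2:**
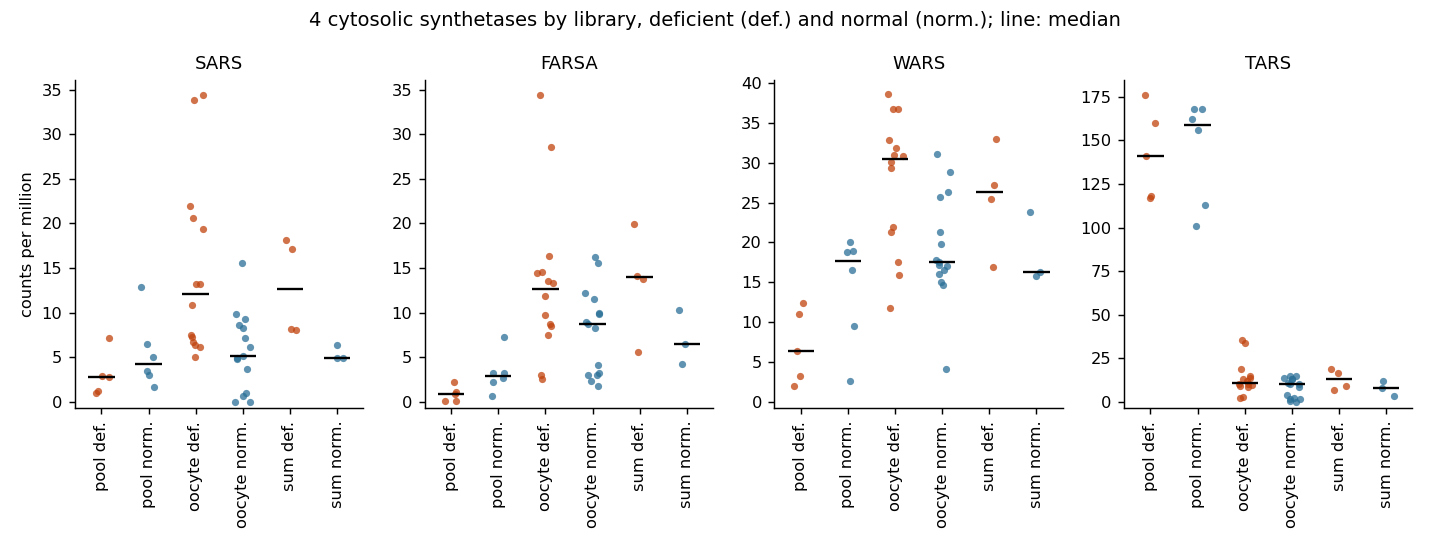
CPM of SARS, FARSA, WARS and TARS in every pool, every single oocyte and every sum of oocytes, deficient and normal, with the median as a line and sideways scatter added for sight. SARS sums separate at 8.06 CPM or more against 6.37 CPM or less, the other groups overlap within each library type, and TARS in pools (101 to 176 CPM) lies above every single oocyte (at most 35.5 CPM).

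Counts of the mitochondrial synthetases in single oocytes were few, and their estimates wide. SARS2 read 3.13, 0.403, 2.55 and 0.858 CPM in deficient and 5.94, 0.752 and 2.20 CPM in normal sums. The log2 difference of -0.88 (SE 0.88) rests on normal sum 2, without which it was 0.11. WARS2 read 4.18, 3.22, 3.57 and 7.23 CPM against 6.79, 3.51 and 5.93 CPM, and differed by -0.43 (SE 0.50). NARS2 differed by 0.37 (SE 0.58) and VARS2 by -0.51 (SE 0.86), or by -1.34 without deficient sum 4. All 4 had an edgeR adjusted p of 1. TARS2, counted in 10 of 29 oocytes with 20 counts in all, did not meet the filter, so a difference in it was not detectable at this depth.

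**Figure D3:**
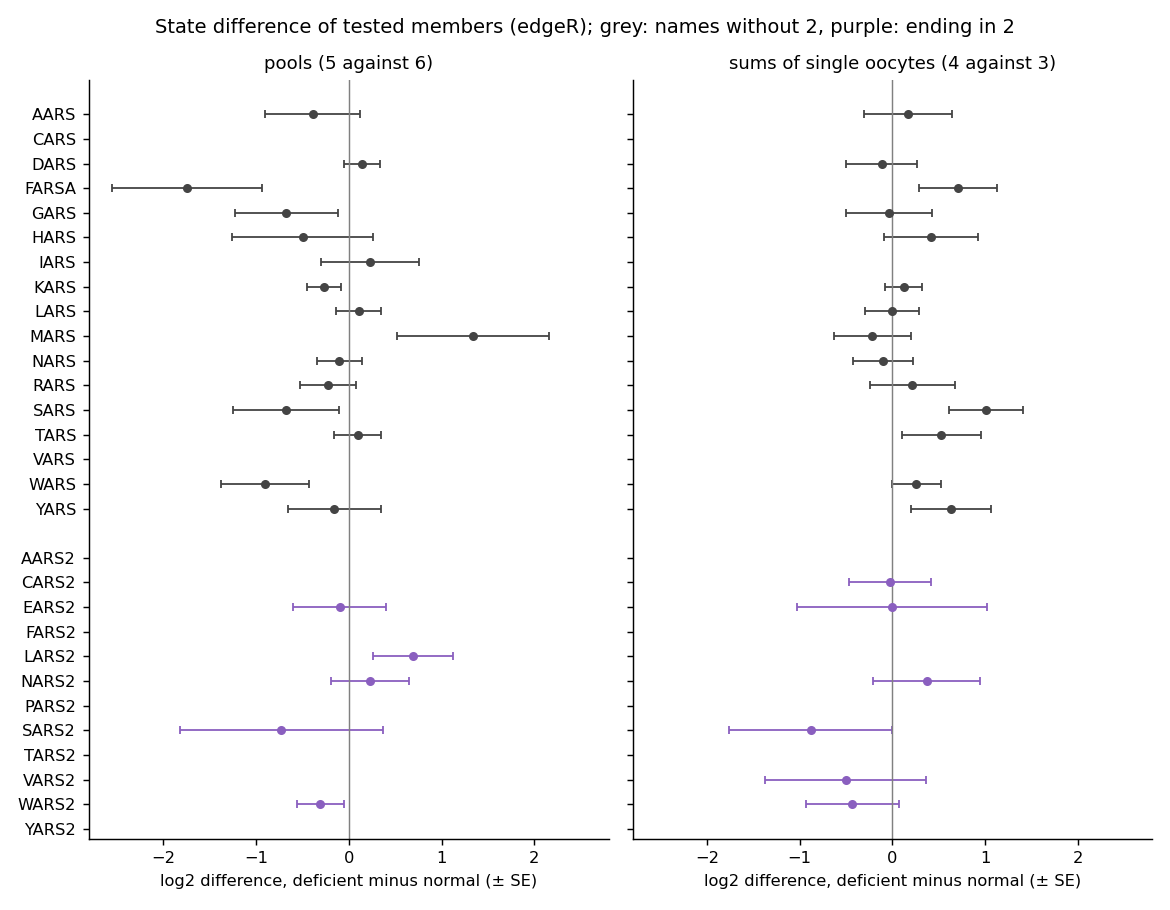
Log2 difference (deficient minus normal, with its SE) of the tested members shown, in pools (left) and in sums of single oocytes (right) from edgeR, grey for names without a 2 and purple for names ending in 2. Names with no point did not meet the expression filter, and FARSA and SARS lie left of 0 in pools and right of 0 in sums.

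Whether the state difference itself differed between pools and single oocytes was tested as an interaction. It passed for 0 of 17643 genes (0.0% called) and for 0 of 26 members with edgeR, with 939 genes and 1 member at an unadjusted p under 0.05. DESeq2 called 1 gene, not a member. The interaction, pools minus sums, was -2.40 for FARSA (SE 1.02, edgeR adjusted p 0.903), -1.66 for SARS (SE 0.82, edgeR adjusted p 0.903) and -1.14 for WARS (SE 0.66, edgeR adjusted p 0.907). CARS gave 3.66 (SE 2.31, edgeR adjusted p 0.921), from 75 counts in deficient pool B4, 30 in normal pool B2, and 14 in the other 9 pools. Among names ending in 2, VARS2, TARS2, WARS2 and NARS2 gave -0.70, -0.55, 0.13 and -0.13, with SEs of 1.79, 1.76, 0.49 and 0.76. The opposite signs of FARSA and SARS in pools and oocytes are therefore not established as a difference.

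The share of the members' counts that fell in names ending in 2 was similar in both states. It was 4.48% to 8.66% (median 7.48%) in deficient and 5.18% to 8.59% (median 6.86%) in normal pools. In single oocytes it was 6.02% to 21.4% (median 12.7%) in deficient and 3.31% to 21.9% (median 12.6%) in normal libraries. Of the sums, 1 deficient sum stood at 7.04% and the remaining ones between 9.10% and 17.3%. The state ranges overlapped in every set, and sums of oocytes lay mostly above the pools. Family genes outside the rule, with RARS2, IARS2, FARSB and EPRS among them, do not enter this share.

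Between library types the family was rearranged. Pools minus sums of oocytes, with the state in the model, passed edgeR's test for 11038 of 15977 genes (69.1% called) and for 20 of 26 tested members (76.9%), close to that background. Of all genes, 34.0% were higher and 35.1% lower in pools. Of the members, 10 were higher, 7 cytosolic and 3 mitochondrial, and 10 were lower, again 7 and 3. Kit, number of oocytes and depth all differ with the library type and cannot be told apart, and the tables were made separately. IARS and LARS2 did not meet the expression filter in sums alone, CARS2 and VARS2 not in pools alone, and VARS in neither. They entered this comparison through the library type where they are higher, so their differences and p-values are given as descriptions. The counts of members above include them, so those counts are descriptions too.

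Higher in pools were TARS by 3.38 (SE 0.26, edgeR adjusted p 3.83e-11), IARS by 2.81 (SE 0.77, adjusted p 0.00233) and DARS by 1.43 (SE 0.23, adjusted p 4.77e-06) on the log2 scale. TARS stood between 3.38 and 18.6 CPM in the 7 sums, below the 101 CPM of the lowest pool. IARS, the isoleucine enzyme, had 1263 counts over 11 pools but only 22 counts in 6 of the 29 oocytes, all in 3 of the 7 sums. LARS, for comparison, was counted in all 29. Mitochondrial members higher in pools included WARS2 by 1.45 (SE 0.25, adjusted p 1.46e-05) and LARS2 by 1.32 (SE 0.50, adjusted p 0.023). LARS, NARS, RARS and KARS were also higher, by 0.58 to 1.13.

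Lower in pools was CARS2, the mitochondrial cysteine enzyme, at -4.64 on the log2 scale (SE 0.65, edgeR adjusted p 8.19e-07). It had 192 counts over 11 pools (0 to 65 in each) and 496 over the far shallower 29 oocytes. VARS (valine) differed by -3.71 (SE 0.96, adjusted p 0.0014), FARSA by -3.23 (SE 0.59, adjusted p 3.78e-05) and MARS by -2.72 (SE 0.55, adjusted p 0.000114). Of the remaining mitochondrial members, VARS2 differed by -3.18 (SE 0.91, adjusted p 0.00349) and SARS2 by -2.63 (SE 0.77, adjusted p 0.004). HARS, WARS, SARS and AARS were also lower, at -2.19 to -1.53. Class did not sort the directions: 3 class I and 4 class II enzymes of the cytosol were higher and 3 and 4 were lower. Of the 6 members of the multi-synthetase complex, IARS, DARS, LARS, RARS and KARS were higher in pools and MARS lower.

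Scaling shifts this comparison. With RLE size factors in place of TMM the median over all genes moved from -0.03 to -0.47, and the calls split into 4459 higher and 6648 lower genes instead of 5432 and 5606. Under RLE, KARS (0.14, edgeR adjusted p 0.403), RARS (0.33, adjusted p 0.271) and LARS2 (0.89, adjusted p 0.113) no longer passed, while GARS (-1.21, adjusted p 0.0111) and YARS (-0.89, adjusted p 0.0383) did. TARS, DARS, LARS, NARS, WARS2, FARSA and MARS passed in the same direction under all 7 alternative fits run for the library types. CARS2 did too, but as it entered through the sums this is a description. IARS did not pass in normal libraries alone (2.34, edgeR adjusted p 0.0842), nor did VARS2 (-2.72, adjusted p 0.0502). LARS2 passed in 2 of its 6 alternative fits, RARS in 3 of 7 and KARS in 4 of 7. SARS (-0.67, edgeR adjusted p 0.296), AARS (-1.14, adjusted p 0.0729), HARS (-1.60, adjusted p 0.0595) and WARS (-1.04, adjusted p 0.051) did not pass in normal libraries alone and passed in their other 6 alternative fits.

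**Figure D4:**
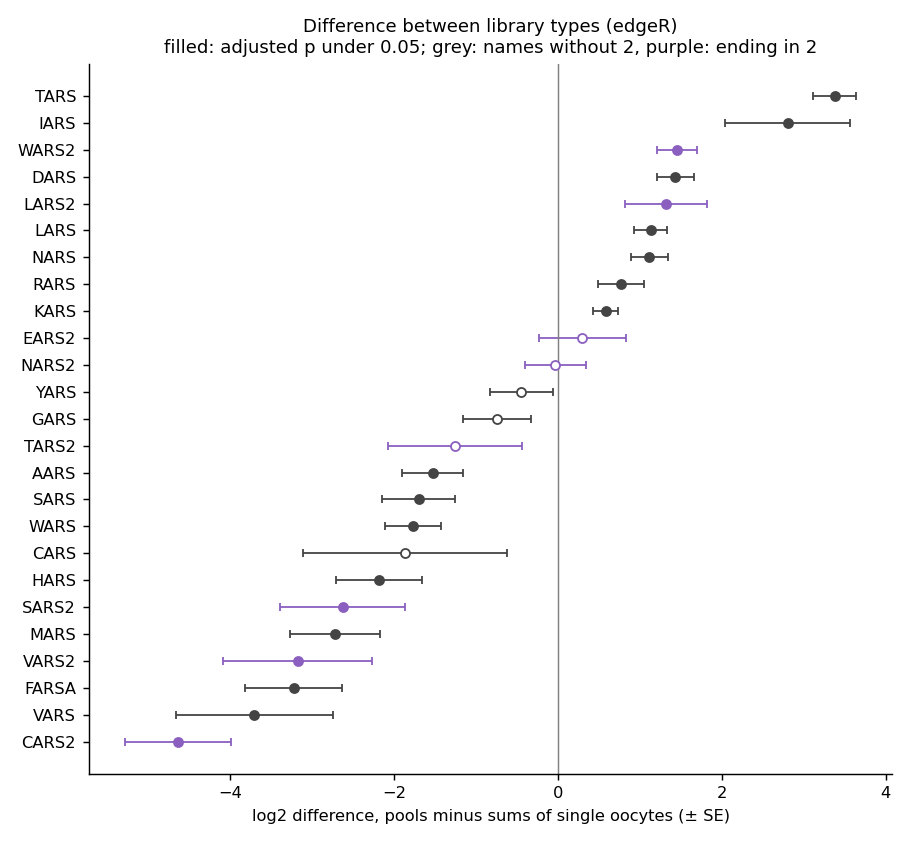
Log2 difference between pools and sums of single oocytes (pools minus sums, with its SE) of 25 of the 26 tested members from edgeR with TMM scaling, in order of size. Filled points passed an adjusted p under 0.05 (9 of those shown higher, 10 lower), grey marks names without a 2 and purple names ending in 2, and TARS (3.38) and CARS2 (-4.64) stand at the ends. IARS, LARS2, CARS2, VARS2 and VARS entered through the library type where they are higher.

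A ratio within a library does not depend on its scaling, so cytosolic enzymes were each set against the mitochondrial enzyme for the same amino acid. For tryptophan, WARS2 held 51.3% to 90.7% of the counts of WARS and WARS2 together in pools (median 66.1%, n = 11) but 12.3% to 29.4% in the 7 sums of oocytes. The library types did not overlap. By state, WARS2 held 60.3% to 90.7% in deficient and 51.3% to 83.1% in normal pools, and 12.3% to 18.0% in deficient and 18.2% to 29.4% in normal sums. The sums of the states were thus apart by a narrow margin and the pools were not, with opposite orders of the medians. The sums of the states were also apart for cysteine, with the deficient share the higher: CARS2 held 92.1% to 100% in deficient and 84.8% to 90.3% in normal sums, from 13 and 33 counts of CARS. In pools that share ran from 33.3% to 100%. For threonine, TARS2 held 0% to 1.05% of the pair in pools and 0.654% to 12.9% in sums.

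For the remaining pairs, too, the shares overlapped between library types. In pools LARS2 held 2.92% to 12.8% and NARS2 1.85% to 10.9% of their pairs. In deficient sums these shares were 0% to 11.6% and 6.85% to 22.4%, and in normal sums 2.76% to 4.90% and 6.62% to 14.2%. SARS2 held 0% to 52.2% of the serine pair in deficient and 0% to 21.2% in normal pools. In sums its share was 4.52% to 23.8% in deficient and 13.3% to 54.9% in normal ones. The 54.9% was that of normal sum 2, with 28 counts of SARS2 and 23 of SARS. These shares were looked at after the member levels and carry no test.

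**Figure D5:**
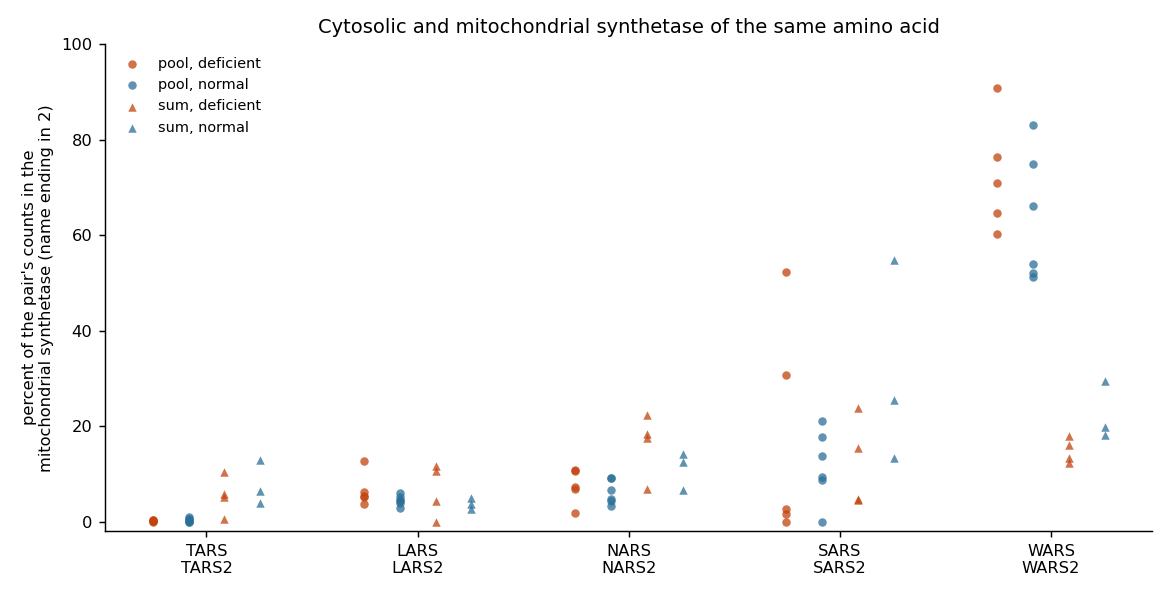
Share of a pair's counts that fell in the mitochondrial synthetase, in percent, for 5 amino acids, with pools as circles and sums of single oocytes as triangles, deficient in orange and normal in blue. WARS2 takes 51.3% to 90.7% of its pair in pools and 12.3% to 29.4% in sums, while the other pairs lie mostly below 25%.

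The phenylalanine enzyme of the cytosol is built of alpha (FARSA) and beta (FARSB) subunits. FARSB has no row under its own symbol, but LOC100524650 has it as RefSeq symbol. Its level was 773 ± 221 CPM over the 11 pools and 66.9 ± 24.4 CPM over the 29 oocytes (SD), so beta was higher and alpha lower in pools by mean CPM. FARSA held 0.0109% to 0.178% of the counts of both in deficient and 0.143% to 0.851% in normal pools. It held 12.8% to 23.5% in deficient and 8.0% to 12.1% in normal sums. The states overlapped in pools and did not in sums, where the deficient share was the higher, with no test. Of all pairs looked at, only this share and those of WARS2 and CARS2 were apart between states in sums. They were singled out after values were seen, with no rate over all genes beside them.

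Other family genes stood outside the rule. EPRS, which joins the glutamate and proline enzymes in a single chain, is not matched by the spelled pattern. Its level was 226 ± 49.9 CPM over the 5 deficient pools, 271 ± 57.8 CPM over the 6 normal ones and 51.8 ± 18.1 CPM over the 29 oocytes (SD). Rows with RefSeq symbols of further mitochondrial enzymes were RARS2 (LOC100518457), at 44.0 ± 7.97 CPM in pools and 10.8 ± 8.82 CPM in oocytes, and IARS2 (LOC100739845), at 14.6 ± 5.89 and 35.4 ± 20.4 CPM. IARS2 in oocytes read 23.3 ± 9.22 CPM in the 17 of 17 September and 52.4 ± 19.8 CPM in the 12 of 22 September (SD), with no test of the dates. TARSL2 had 6 counts in 2 pools and none in oocytes. HARS2, MARS2 and QARS had no row under their symbols, and none was found through RefSeq symbols, so no level is given.

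Genes that work beside the synthetases were taken from 6 lists. None of their tested members passed edgeR's test between states in pools, in sums or as an interaction. Of the 3 scaffold proteins of the multi-synthetase complex, AIMP1 differed in pools by 0.20 (SE 0.21) and EEF1E1 by -0.03 (SE 0.37). In sums AIMP2 differed by 0.83 (SE 0.91) and AIMP1 by -0.35 (SE 0.40). Of 9 genes of further tRNA charging and proofreading tested in pools, 3 were higher and 6 lower in deficient pools. MTFMT, which formylates the initiator tRNA of mitochondria, had a mean of 24.9 ± 9.10 CPM over the 5 deficient and 43.3 ± 12.1 CPM over the 6 normal pools (SD). It differed by -0.72 on the log2 scale (SE 0.30, edgeR adjusted p 0.903). PTRH2, a peptidyl-tRNA hydrolase, differed by -1.02 (SE 0.59) in pools and -0.85 (SE 0.50) in sums, and PTRHD1 by -0.71 (SE 0.40) in sums.

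Of 8 mitochondrial translation factors tested in pools, 3 were higher and 5 lower, and in sums 4 of 7 were higher. MRRF, which recycles mitochondrial ribosomes, differed by -0.71 (SE 0.30, edgeR adjusted p 0.903) and TUFM, the elongation factor that brings charged tRNA to them, by -1.04 (SE 0.60) in pools. In sums MTIF2 differed by -0.73 (SE 0.43) and TUFM by 0.33 (SE 0.35). Among 11 genes of mitochondrial tRNA processing and modification tested in pools, 5 were higher and 6 lower. TRMT10C, a subunit of mitochondrial RNase P, differed by 0.42 (SE 0.18, edgeR adjusted p 0.903). Its partner HSD17B10 differed by -1.92 (SE 1.07). The deficient-pool mean of HSD17B10 lay under the level that 3 counts make in the smallest pool, so that size is uncertain. In sums 7 of 9 were higher, with TRMT5 at 0.28 (SE 0.25) and NSUN2 at -0.74 (SE 0.71).

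Of the cytosolic elongation factors all 4 tested were lower in deficient pools by estimate, with EEF1A1 at -0.41 (SE 0.23) and EEF2 at -0.61 (SE 0.48), while 2 of 5 were higher in sums. The list of the amino acid response took in ATF4, genes of its programme and EIF2AK kinases that lie upstream of it. Of its 10 genes tested in pools, 1 was higher and 9 were lower in deficient pools, with a median of -0.35. CHAC1 differed there by -1.08 (SE 0.53, edgeR adjusted p 0.921) and PSAT1 by -0.55 (SE 0.34). In sums 6 of 11 were higher, with a median of 0.05, ATF5 at 0.44 (SE 0.25) and ATF4 at 0.37 (SE 0.31). None of these sums' values passed, each with an edgeR adjusted p of 1.

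Between library types the lists also held calls both ways, beside 34.0% of all genes called higher and 35.1% lower in pools. Of the amino acid response, 2 genes were higher and 7 lower in pools among 12 tested, led by ATF5, at 0.0865 ± 0.126 CPM in deficient pools and 49.0 ± 5.25 CPM in deficient sums. That pool mean lies under the 0.207 CPM that 3 counts make in the smallest pool, so no fold is given. In mitochondrial tRNA processing 5 were higher and 4 lower among 13, with TRMT10C at 3.77 (SE 0.18, adjusted p 1.34e-14) and HSD17B10 at 0.159 ± 0.285 CPM in deficient pools, also under that level, and 8.08 ± 4.25 CPM in deficient sums. Genes that amidate glutamine tRNA in mitochondria were lower in pools, with GATC at -3.06 and GATB at -2.43 (SEs 0.28 and 0.46, edgeR adjusted p 1.03e-09 and 5.25e-05) and QRSL1 at 0.135 ± 0.189 CPM in deficient pools and 3.49 ± 1.69 CPM in deficient sums, while MTFMT was higher at 2.90 (SE 0.38). Of the scaffold genes, AIMP1 was higher by 1.57 (SE 0.23) and AIMP2 lower at -3.10 (SE 0.97). AIMP2 did not meet the expression filter in pools alone and entered through the sums, where it is higher. Its difference is given as a description, as is that of any list gene that met the filter in only 1 library type. Translation factors gave 4 higher and 2 lower of 8, led by MTRF1L at 3.45 (SE 0.48). Cytosolic elongation factors gave 1 higher and 4 lower of 5, led by EEF1G at -4.27 (SE 0.57).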

How the data were processed

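RNA of pooled and single pig metaphase II oocytes was sequenced as 100 bp paired-end reads, per the labels' protocols. The deposited values are raw counts per gene on build Sscrofa10.2. TopHat2 2.0.14, edgeR, Trim Galore and FastQC are the tools named in the submitters' processing notes. Which program counted reads, and with what strand setting, is not given in the sources used here, so reads of overlapping antisense genes and of near-identical copies cannot be told apart. Of 38795 rows, 1 named no gene (1.05% to 4.75% of a pool's counts, 0.648% to 8.15% of an oocyte's) and was left out. Symbols were matched through a Sscrofa11.1 table, where all 30 members have an entry, and no coordinates were used.

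Counts were tested in R 4.3.3 with edgeR 4.0.16 (quasi-likelihood, default expression filter, TMM, Benjamini-Hochberg over all genes tested, threshold 0.05), after tests on simulated data. DESeq2 1.42.0, limma 3.58.1 (voom), other scaling, no filter, left-out libraries and blocked fits were alternatives. The members and lists were chosen with earlier results of these data known. Values were named by rule: members past the threshold (for library types at most the 6 of largest difference in each direction with a mean of at least 1 CPM in either type), otherwise, in each state comparison and the interaction, the 4 of smallest p among names with and without a 2. Each list gave at most 4 genes past the threshold by p or, where none passed, its 2 of lowest p. Values of other members, the pair shares and the rows outside the rule are descriptions chosen after values were seen. The values of 1 member are not reported here.

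The labels tie no replicate to an animal. P-values therefore cover only how far these samples vary, possibly for technical reasons. No libraries of a group agreed within sampling noise (smallest chi-square per degree of freedom 35.0 in pools, 4.09 in oocytes). Sums that share a title number deviated together (correlations 0.143, 0.22 and 0.165 for numbers 2, 3 and 4), so the numbers may pair them. In both states, sum 2 holds oocytes of 22 September only, sum 3 of 17 September only, and sum 4 of both dates. A pairing by number therefore cannot be told apart from a shared date. The main fit of the sums has no block on the number, so its p-values leave such a pairing out. A block on the 6 sums that share a number was run as an alternative.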

Additional observations from a re-analysis of the deposited data

Results flagged for a closer look

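Of 62 combinations of a member and a group of 4 to 10 libraries examined, 4 held a library far from the others of its group, about what chance flags (1 in 20). DARS stood at 100.0 CPM in normal pool B4, where the nearest other normal pool stood at 78.8 CPM. YARS stood at 25.4 CPM in normal pool B2, and the next normal pool at 10 CPM. EARS2, the mitochondrial glutamate enzyme, stood at 1.24 CPM in deficient pool A2, the pool with the fewest genes detected, and at 4.53 CPM in the next. HARS, the histidine enzyme, stood at 2.02 CPM in deficient sum 2, and at 8 CPM in the next.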

How the results depend on the processing

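No member passed between states, or in the interaction, under any alternative run. Counts over all genes moved from 0 as follows. In pools DESeq2 called 28. In sums DESeq2 called 2, each oocyte as a sample 1, no filter 4, oocytes of 17 September alone 2, and the replicate block on the title number (6 sums) 2, against 0 in the same 6 sums unblocked, an alternative added after seeing the data. The block changed no call of a member. For the interaction DESeq2 called 1, each oocyte 3 and no filter 6. SARS2 in sums ranged from -1.29 to 0.105 when 1 sum was left out, VARS2 turned to 0.16 with sums by number and date, and the WARS2 interaction to -0.21 with each oocyte as a sample; the cause was not tested. Of the remaining values of single members, 393 kept their sign and side of the threshold and 6 lost it, all 6 between library types.

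Labels shared by 4 deficient and normal pools gave uneven correlations (-0.105 for A2, 0.127 for A3, 0.476 for B2 and 0.078 for B4). Whether these labels pair the pools is not settled. All but A2 correlated best with their own label. The block on them called 0 genes, as did the same 8 pools without it. Most mitochondrial members have too few counts in single oocytes for any but a large difference to be seen. Levels per kilobase were not run because transcript lengths were not used here, and SARS had no fit in oocytes of 22 September alone, where it did not meet the filter.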
